A study of Bos taurus with 48 samples.

Results

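Total leukocytes of 12 calves were compared on d 1, the day after 6 of the calves had been weaned and housed at the same time and the other 6 had been housed without weaning. The comparison covered 12 of the 48 libraries of the series, namely the d 1 libraries of weaned calves 1758, 1762, 1769, 1770, 1773 and 1809 and of control calves 1755, 1759, 1763, 1789, 1802 and 1803. The members were chosen by treatment and day as the labels give them, and libraries of the same calves on d 0, 2 and 7 were used here only for comparison. All calves were intact male beef calves, given as Continental in the labels and as Simmental in the study's methods, and all were born in spring, had grazed with their dams and had been immunised against respiratory viruses 28 days earlier. Weaned calves were separated abruptly from the dam and penned with other weaned calves, whereas control calves were penned with their dam, so that weaning and a new social group cannot be told apart. Both treatments changed from pasture to a shed on d 0, and all were offered silage and concentrate, but the dam's milk, the number of calves in a pen and the presence of the dam differed with weaning. Each library came from 1 calf and 1 blood sample, from which the red blood cells had been lysed and the RNA of all white cells extracted.

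Blood leukocytes are a mixture of neutrophils, lymphocytes, monocytes, eosinophils and basophils, with platelets and immature red cells as frequent companions. Handling and separation act on these cells through adrenal glucocorticoids and through adrenergic signals, which move neutrophils and lymphocytes between blood and tissue. Leukocytes answer such signals with cytokines and chemokines, which are read by receptors on other white cells, and with immediate early transcription factors such as FOS and FOSB. RNA of the whole mixture was measured here, so that fewer cells of a type and less RNA per cell cannot be told apart in any value below.

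The libraries of d 1 held 3037140 to 4013635 counted reads, with a median of 3631142.5, and between 13548 and 14683 genes with at least 1 count. The weaned libraries were deeper on the whole, at 3471102 to 4013635 reads against 3037140 to 3636518 in control calves. A level is given as CPM, which relates the count to the scaled total of its library. Relative to the unscaled total, 3 counts in a library correspond to 0.747 to 0.988 CPM, a limit that covers counting error only. The scaling factors of the d 1 libraries were 0.940 to 1.06, so 3 counts can lie somewhat outside these limits in the levels below. Calves of the same treatment differed from each other by more than their counts allow, with a chi-square of 3.81 to 44.4 per degree of freedom over 30 pairs, so no pair of libraries of the same treatment was a repeat. Symbols were at hand for 643 of the 25669 genes of the table. They come from the orthologs that the study paired with genes it had listed as changed in at least 1 comparison, and so are not a random sample of the genome.

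The d 1 libraries of 3 calves deviated most from the mean of all 12. Over 10335 genes with a mean of at least 5 CPM, the deviations of weaned calf 1773 and control calf 1755 from the mean of all 12 libraries ran together (r = 0.80), and those of control calf 1763 ran against both (r = -0.85 with calf 1773 and r = -0.76 with calf 1755). Across these genes the SD of the log2 deviation was 0.60 to 0.64 in the 3 libraries and at most 0.39 in any other. Calf 1763 also ran together with control calves 1802, 1789 and 1803 (r = 0.62, 0.54 and 0.48). Calves 1773 and 1755 ran against calf 1802 (r = -0.68 and -0.62). The 3 libraries were thus the ends of a range and not a separate group. These correlations are across genes of libraries of different flowcells and depths and are given as a description. Over 454 genes with a symbol that the study had listed only in comparisons that used no d 1 library, the median shift from the 12-library mean was 0.94 on the log2 scale in each of calves 1773 and 1755, -0.77 in calf 1763, and -0.40 to 0.20 in the other 9. Libraries at both extremes were thus found among control calves. Without these 3 libraries, the log2 difference on d 1 moved over 1.5 times in 4 of the 26 genes whose differences were followed across fits, and both values are given for these 4 (ITPKA, TLR7, IL5RA and IL8).

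The identity of the d 1 libraries was checked on the 150 genes that varied most between calves over all 48 libraries, a panel chosen with the calf labels. Every d 1 library was most alike a library of its own calf (r = 0.827 to 0.943 across genes), which is a description since the panel favours it. With the d 0 library of the same calf, 11 of the 12 d 1 libraries had r = 0.548 to 0.943. The exception was calf 1758, whose d 1 library had r = 0.14 with the d 0 library labelled 1758 and r = 0.892 with that of its d 2. The d 0 library labelled 1758 was most alike the d 2 library labelled 1755 (r = 0.619). That d 2 library had at best r = -0.10 with another library labelled 1755. The d 0 library of control calf 1763 was more alike that of calf 1789 (r = 0.62) than any of its own calf (r = 0.58). The d 7 libraries labelled 1758 and 1770 were each more alike the other calf (r = 0.782 and 0.581) than their own (r = 0.49 and 0.338), both of them weaned calves. Values on d 1 do not rest on these libraries, whereas changes from d 0 rest on those of d 0. For log2 differences of single genes relative to d 0, the values without calves 1758 and 1763 are given beside them. Means on d 0, counts of calves that changed and permutation p of d 0 and of the change use all 12 calves and were not repeated without these calves. Means on d 2 and d 7 include the libraries labelled 1755 of d 2 and 1758 and 1770 of d 7.

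The first question was which genes differed in level between the treatments 1 day after weaning. Of 14078 genes with at least 10 counts over the 12 libraries, 0.0% passed both an adjusted p under 0.05 and a 2-fold difference in edgeR's quasi-likelihood test, and the smallest adjusted p was 0.139. At an unadjusted p under 0.05 stood 424 genes (3.01% of those tested), 145 higher (1.03%) and 279 lower (1.98%) in weaned calves. DESeq2 gave 422 such genes, 169 higher and 253 lower, and the 1 gene with an adjusted p under 0.05 differed by less than 2-fold. With no difference at all, about 1 in 20 genes would reach such a p, a larger share than the 3.01% found in edgeR. The results below are therefore levels with their spread, ordered by unadjusted p, and not calls.

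The genes at an unadjusted p under 0.05 were of different kinds in each direction, as the plot of difference against level shows. The 145 genes higher in weaned calves had a median level of 4.25 CPM and a median log2 difference of 1.02, and 78 of them differed at least 2-fold. Only 12 of these 145 (8.28%) had a mean of at least 100 CPM, against 22.4% of all genes tested. The 279 genes that were lower in weaned calves had a median level of 154.7 CPM and a median log2 difference of -0.31, and 178 of them (63.8%) had a mean of at least 100 CPM. Of the 279 lower genes, 196 differed by less than 0.5 on the log2 scale and 48 by at least 2-fold. Higher values in weaned calves were thus more often large and in weakly expressed genes, where counting error is large, while most lower values were small.

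**Figure D1:**
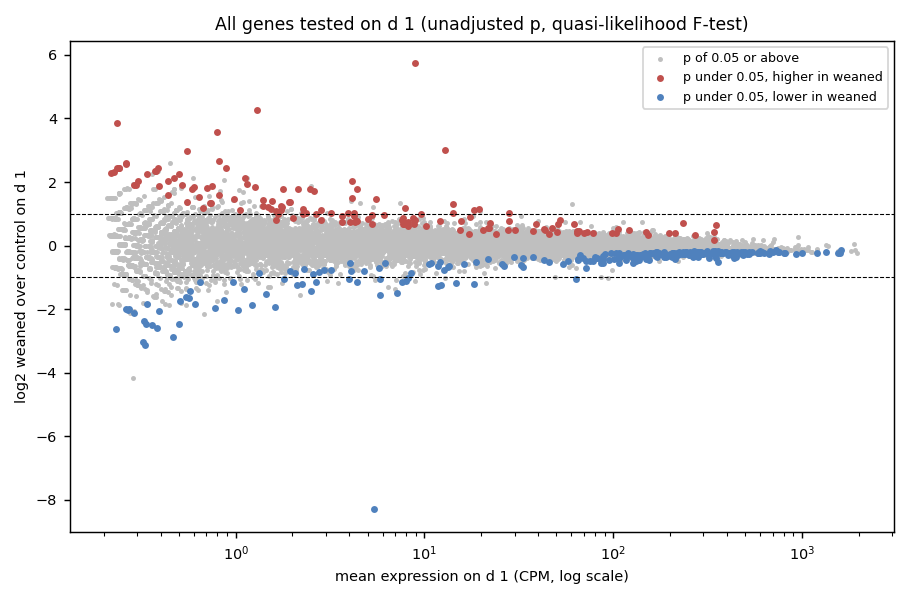
Weaned minus control difference on d 1 (y axis, log2) against the mean level of each of the 14078 genes tested (x axis, CPM, log scale), with the genes at an unadjusted p under 0.05 marked by direction. The 145 higher genes lie mostly at low levels (median 4.25 CPM) and the 279 lower genes at high levels (median 154.7 CPM) and close to 0.

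The number and the direction of these genes changed when single calves were left out and when the flowcell was a block. Without control calf 1755, 2319 genes stood at an unadjusted p under 0.05, 1235 higher and 1084 lower, whereas without control calf 1763 there were 194, 96 higher and 98 lower. Without control calf 1802, weaned calf 1770 or weaned calf 1773 there were 226, 235 and 259, and without control calf 1759 there were 668. Without calves 1755, 1763 and 1773 together, 352 genes were higher and 297 lower (4.74% of 13693 genes tested). With the flowcell as a block, which uses the 4 flowcells that hold 1 weaned and 1 control library, 1272 genes were higher and 639 lower (13.57%), so that the excess turned from lower to higher genes. The 4 libraries alone on their flowcell add nothing to the difference in this fit. An influence of the flowcell and the loss of these calves therefore cannot be told apart. In each of these fits 0 genes were called, and the smallest adjusted p over the 12 fits with a calf left out was 0.0724.

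**Figure D2:**
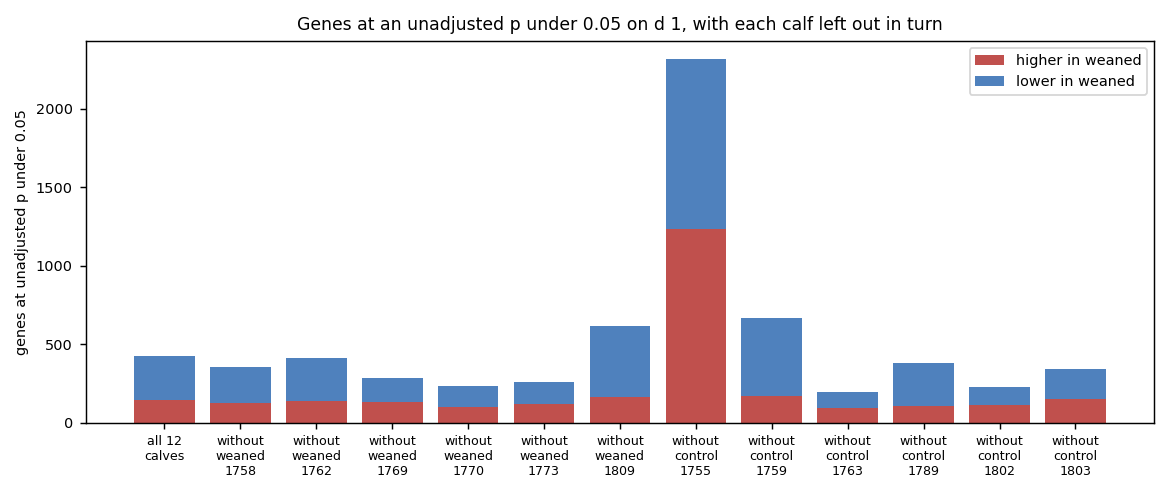
Number of genes at an unadjusted p under 0.05 in the d 1 comparison (axis: genes, higher and lower in weaned calves) with all calves and with each calf left out. The count runs from 194 without control calf 1763 to 2319 without control calf 1755, against 424 with all 12 calves.

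The gene with the smallest p, ENSBTAG00000019669, for which no symbol was at hand, was higher in every weaned calf. Its level was 251 CPM in the lowest, 299 CPM in the median and 323 CPM in the highest weaned calf, and 141, 177 and 210 CPM in control calves. The groups did not overlap, with means of 293 ± 24.2 and 177 ± 28.9 CPM (SD, n = 6 each), a log2 difference of 0.72 (SE 0.11) and an adjusted p of 0.139 in edgeR. In DESeq2 its adjusted p was 3.03e-05, but the difference was under 2-fold. On d 0 the same calves had 201 ± 64.9 and 188 ± 29.6 CPM (exact two-sided permutation p = 0.807), and the change from d 0 to d 1 differed between treatments (exact permutation p = 0.00866), by 0.71 on the log2 scale and by 0.64 without calves 1758 and 1763. The means of weaned and control calves were 331 and 250 CPM on d 2 and 270 and 172 CPM on d 7.

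Every permutation p given here is exact, two-sided and over all ways to divide the 12 calves into 6 and 6, on log2(CPM + 1), with 0.00216 as the smallest value possible, and none is adjusted for the number of genes. These tests and the fits in edgeR and DESeq2 take the calves as independent. Calves of a treatment shared pens, and no test here takes the pen into account, so a difference between pens cannot be told apart from treatment. In edgeR, the adjusted p over all 14078 genes was 0.959 or more for every gene with a symbol, whatever the permutation p of that gene alone.

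Genes that were lower in weaned calves included enzymes, a myosin and signalling proteins. B4GALNT1, which makes the gangliosides GM2 and GD2 of the cell surface, had 0.747, 1.17 and 1.41 CPM in the lowest, median and highest weaned calf and 1.85, 2.37 and 3.05 CPM in control calves. All 6 weaned calves lay below all 6 control calves, at a log2 difference of -1.06 (SE 0.30; exact permutation p = 0.00216), which no single calf moved beyond -1.13 to -0.97. These values rest on 27 and 49 counts over 6 libraries each, near the limit of 3 counts per library in the weaned calves. On d 0 the means were 1.56 and 1.55 CPM (exact permutation p = 0.933), and the level was higher on d 1 than on d 0 in 6 of 6 control calves and in 2 of 6 weaned calves. The means moved to 1.16 CPM in weaned and 2.45 CPM in control calves on d 1, so that most of the difference lay in the control calves.

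MYH14, a heavy chain of non-muscle myosin, was the most strongly expressed of the lower genes with a symbol and a small p. Weaned calves had 20.8, 37.3 and 77.4 CPM and control calves 56.5, 80.1 and 154 CPM (lowest, median and highest), and 5 of 6 weaned calves lay below every control calf. The log2 difference was -1.04 (SE 0.31; exact permutation p = 0.00866) and -0.78 without control calf 1802, which had the highest level. The same difference was present on d 0, before weaning, at 42.4 CPM in weaned and 78.2 CPM in control calves (exact permutation p = 0.026), and its change from d 0 to d 1 gave an exact permutation p of 0.221. On d 2 and d 7 the means were 39.4 against 83.7 and 54.8 against 107 CPM. Weaned calves were thus the lower group on every day, d 0 included.

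DUSP4, a phosphatase that switches off MAP kinases, had 0.747, 1.37 and 1.64 CPM in weaned and 1.09, 2.79 and 5.53 CPM in control calves, a log2 difference of -1.22 (SE 0.40; exact permutation p = 0.0152). Only the control calf 1755 fell within the weaned range. ITPKA, an inositol trisphosphate kinase, had medians of 1.30 and 3.23 CPM (log2 -1.13, SE 0.43; exact permutation p = 0.0433), with weaned calf 1758 at 3.52 CPM among the control values. Without calves 1755, 1763 and 1773 the log2 difference of ITPKA was -0.73. On d 0 the exact permutation p of DUSP4 and ITPKA were 0.703 and 0.37.

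ADRB3, a beta adrenergic receptor, was lower in weaned calves on average but not calf by calf. Weaned calves had 7.97, 10.5 and 14.6 CPM, and control calves ranged from 5.46 to 52.3 CPM with a median of 22.1 CPM. The log2 difference was -1.21 (SE 0.44), the exact permutation p was 0.136, and control calf 1755 lay below every weaned calf. PSD2, an exchange factor for small GTPases, was at 3 counts or fewer in every weaned library, with 9 counts in all against 27, and at least 1.73-fold lower than in control calves relative to 3 counts per library. PSD2 also differed on d 0, with means of 0.521 and 1.27 CPM (exact permutation p = 0.0325).

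Genes that were higher in weaned calves were led by an ion channel, a transporter, a receptor and an enzyme. CNGA3, a subunit of a cyclic nucleotide-gated channel known from cone photoreceptors, had 2.34, 2.97 and 4.54 CPM in weaned and 0.819, 1.23 and 2.57 CPM in control calves. Of the 6 weaned calves, 5 lay above every control calf (log2 1.14, SE 0.34; exact permutation p = 0.00433). On d 2 the order of the means was the opposite, at 1.80 CPM in weaned and 3.23 CPM in control calves. HAL, histidine ammonia-lyase, the first enzyme of histidine breakdown, had 3.05, 4.51 and 15.7 CPM in weaned and 0.701, 2.08 and 3.55 CPM in control calves (log2 1.51, SE 0.48; exact permutation p = 0.0108). Without weaned calf 1758, which held the highest value, the log2 difference of HAL was 0.97. Means of HAL were 3.44 and 2.05 CPM on d 0, 6.62 and 3.07 CPM on d 2 and 7.24 and 2.99 CPM on d 7, with weaned calves above on each day.

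**Figure D3:**
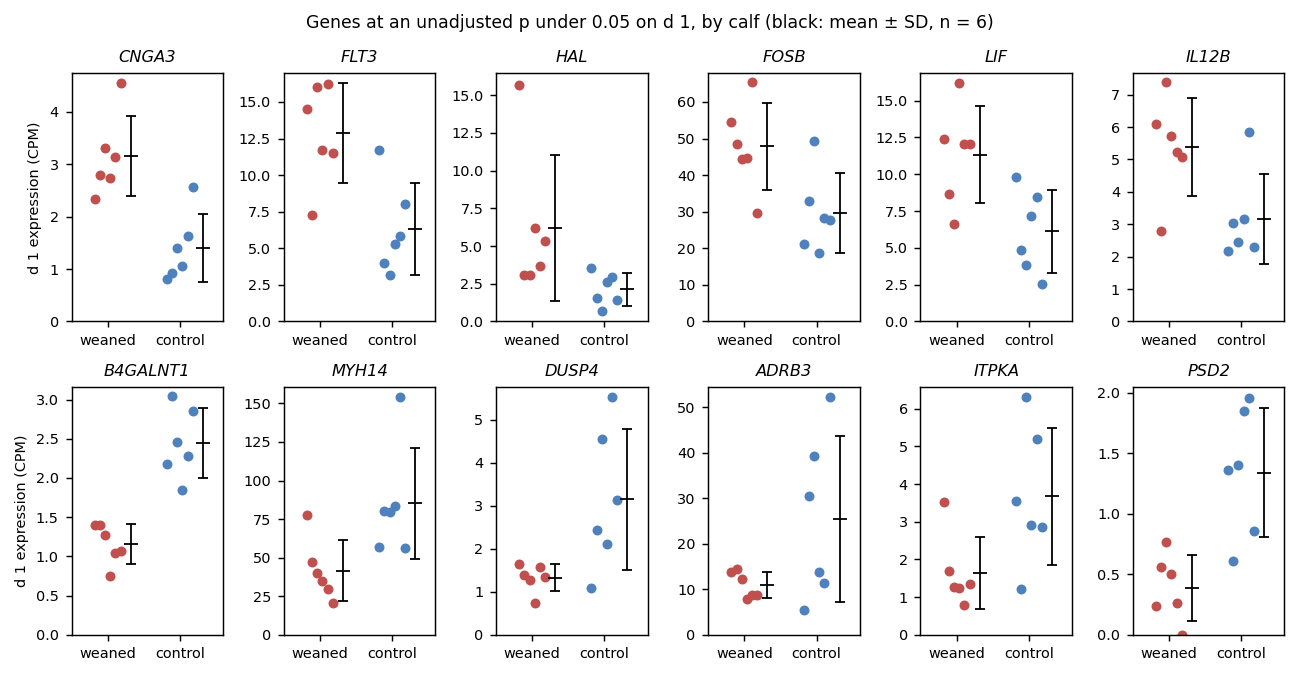
Level on d 1 (y axis, CPM from 0) of 12 genes in each calf, weaned and control, with the mean and SD of 6 calves. Weaned calves lie higher for CNGA3, FLT3, HAL, FOSB, LIF and IL12B and lower for B4GALNT1, MYH14, DUSP4, ADRB3, ITPKA and PSD2, and B4GALNT1 is the one of these whose groups do not overlap.

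The count of genes without overlap between the groups was 14 of 14078 (0.0994%), 7 higher and 7 lower in weaned calves (0.0497% each), and 10 of them had a mean of at least 1 CPM. With RLE size factors there were 13, of which 12 were shared, and without scaling factors 13, of which 11 were shared. For a gene without ties, a random division of the calves separates the groups with a probability of 0.00216, a larger share than the 0.0994% found. B4GALNT1 was the only one of the 14 with a symbol. Among those without, ENSBTAG00000001333 had 16.5, 18.4 and 28.1 CPM in weaned and 8.06, 11.5 and 15.6 CPM in control calves, a log2 difference of 0.76 (SE 0.21). ENSBTAG00000014948 had 2 counts in all weaned and 14 in all control libraries, with no library of either group above 3 counts, and is given without a fold.

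Among chemokine ligands, the secreted proteins that attract leukocytes, 10 of the 28 genes on the list had a symbol and were tested. Of these, 7 were higher and 3 lower in weaned calves, and 4 of the 7 had an unadjusted p under 0.05. Among genes with a symbol, 30 of 597 were higher at such a p, and among all genes 1.03%. The median log2 difference of the ligands was 1.35, against 0.00 over all genes tested and 0.24 over genes with a symbol. CCL24, CXCL5, IL8, PPBP and XCL2 are on the study's d 1 list, which was drawn from these same libraries. Their direction is therefore not independent evidence. The most strongly expressed ligand, CCL4, which attracts monocytes and T cells, had 12.03, 14.2 and 53.7 CPM in weaned and 11.2, 23.2 and 27.7 CPM in control calves (exact permutation p = 0.74). CXCL10, an interferon-induced ligand of activated T cells, had 3.31, 5.52 and 20.4 CPM against 2.91, 10.5 and 31.99 CPM (exact permutation p = 0.316). The ranges of both of these abundant ligands overlapped between the treatments.

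The high median came from ligands near the limit of detection. CCL24, a ligand for eosinophils, was at 0.703 to 1.24 CPM in all 6 weaned calves and at 0 in 3 control calves (22 and 6 counts; exact permutation p = 0.0195), while control calf 1763 had 1.40 CPM, more than any weaned calf. IL8, which attracts neutrophils, had 0.267, 1.79 and 7.86 CPM in weaned and 0, 0.55 and 2.44 CPM in control calves (log2 1.78, SE 0.83; exact permutation p = 0.132). The log2 difference of IL8 was 1.16 without weaned calf 1773 and 1.00 without calves 1755, 1763 and 1773. CXCL5, of the same family, was at 5.34 CPM in weaned calf 1769 and 1.99 CPM in calf 1770 and at most 1.05 CPM in any other calf, at least 1.55-fold higher relative to 3 counts per control library. For XCL2, 9 reads were counted in the 6 weaned libraries together and 1 in the control libraries. Both chemokine receptors with a symbol, CCBP2 and CCRL1, were lower in weaned calves, at 6 against 14 and 12 against 13 counts, and neither had an unadjusted p under 0.05.

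Of 7 cytokines tested, 2 were higher at an unadjusted p under 0.05, against 30 of 597 genes with a symbol and 1.03% of all genes. The median log2 difference of the 7 was 0.30, near the 0.24 of all genes with a symbol. LIF, a cytokine of the IL6 family, had 6.62, 12.04 and 16.2 CPM in weaned and 2.57, 6.01 and 9.82 CPM in control calves (log2 0.87, SE 0.33; exact permutation p = 0.0238). On d 0 LIF was at 11.6 ± 4.08 CPM in weaned and 6.02 ± 2.74 CPM in control calves (exact permutation p = 0.0173), so that the difference preceded weaning, and the change to d 1 did not differ between treatments beyond its spread (exact permutation p = 0.95). IL12B, the subunit shared by IL12 and IL23, had 2.80, 5.48 and 7.38 CPM in weaned and 2.18, 2.75 and 5.86 CPM in control calves (log2 0.76, SE 0.32; exact permutation p = 0.0346). Its change from d 0 gave an exact permutation p of 0.974. TNFSF10, the death ligand TRAIL, was the most abundant cytokine, at 52.3 ± 19.7 and 46.8 ± 25.5 CPM (exact permutation p = 0.481).

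Of 8 cytokine and growth factor receptors tested, 7 were higher in weaned calves, 2 of them at an unadjusted p under 0.05, and the median log2 difference was 0.76. Among the 597 genes with a symbol 442 were higher, 30 of them at such a p, and among all genes 1.03% were higher at such a p. FLT3, the receptor of dendritic cell and early lymphoid progenitors, had 7.29, 13.1 and 16.2 CPM in weaned and 3.15, 5.57 and 11.7 CPM in control calves. The log2 difference was 1.00 (SE 0.31; exact permutation p = 0.0152), 0.87 to 1.27 with any calf left out, and 1.66 with the flowcell as a block. KDR, the main receptor of VEGF, had 3.08, 5.36 and 20.4 CPM against 2.11, 4.29 and 5.53 CPM (log2 0.98, SE 0.43; exact permutation p = 0.143), and 0.45 on the log2 scale without weaned calf 1758. KIT and IL15RA, the most abundant receptors of the list, were at 20.03 ± 6.76 and 14.8 ± 8.27 CPM and at 20.1 ± 8.43 and 22.3 ± 8.48 CPM (exact permutation p = 0.216 and 0.621).

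The study's own d 1 list of cytokine signalling genes held 9 genes, of which 8 were tested, all 8 higher in weaned calves and 6 at an unadjusted p under 0.05, with a median log2 difference of 1.65. The list, which includes FLT3 and KDR, was drawn from these same libraries, so its direction is not independent evidence. The same holds for the d 1 lists of transmembrane transport (6 tested, 4 higher and 2 lower, median 1.21) and of haemostasis (2 tested, median 2.28). SLC4A5, SLC14A1 and SLC6A5, given below, are on the transport list. Across all 597 tested genes with a symbol, 442 were higher and 155 lower, where 50.4% of all 14078 genes were higher. Of 143 genes the study had listed in comparisons with d 1 libraries, 25 were higher and 10 lower at an unadjusted p under 0.05, against 5 and 0 of 454 genes listed with other libraries only. These 454 still had a median log2 difference of 0.22, with 342 higher and 112 lower, and they are the genes whose shifts in calves 1755, 1763 and 1773 were given above.

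Of the immediate early genes, FOSB and FOS had symbols. FOSB, a component of the AP1 transcription factor, had 29.7, 46.6 and 65.5 CPM in weaned and 18.8, 28.01 and 49.4 CPM in control calves (log2 0.68, SE 0.24; exact permutation p = 0.0303). It was higher on d 1 than on d 0 in 6 of 6 weaned and in 5 of 6 control calves, from 26.2 ± 5.79 and 23.9 ± 4.35 CPM on d 0, and the difference between these changes gave an exact permutation p of 0.0758. FOS, its partner family member, was at 171 ± 67.1 and 139 ± 73.3 CPM (exact permutation p = 0.368). On d 7 the mean of FOSB was 37.7 CPM in weaned and 77.8 CPM in control calves, the opposite order.

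Solute carriers, the largest family of membrane transporters, were represented by 32 genes, of which 28 were tested. They were higher in weaned calves in 22 cases and lower in 6, with 2 and 1 at an unadjusted p under 0.05 and a median log2 difference of 0.38. This was near the share among all 597 genes with a symbol, of which 442 were higher, 30 of them and 10 of the lower ones at such a p. The 2 higher ones were weakly expressed. SLC4A5, a sodium bicarbonate cotransporter, had 1.68, 2.35 and 3.73 CPM in weaned and 0.529, 0.946 and 1.91 CPM in control calves (log2 1.22, SE 0.37; exact permutation p = 0.00649). SLC14A1, the urea transporter of red cells and kidney, had 0.535, 2.95 and 4.58 CPM against 0.286, 1.16 and 1.64 CPM (log2 1.36, SE 0.49; exact permutation p = 0.0368), with weaned calf 1809 within the control range. The lower one, SLC6A5, a glycine transporter of neurons, was at most 2 counts in a weaned library, 6 against 18 counts in all and at least 1.13-fold lower relative to 3 counts per library. The most abundant carrier, the zinc transporter SLC39A10, was at 43.1 ± 29.8 and 32.1 ± 32.7 CPM (exact permutation p = 0.262).

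Markers of single blood cell types were too few to read the cell composition, since at most 66.67% of a marker list had symbols. No B cell, plasma cell or glucocorticoid response gene had one. The study's own blood counts, over all its calves, did differ on d 1. Weaned calves had a higher percentage of neutrophils, a lower percentage of lymphocytes and fewer platelets than control calves. How far this shift in the mixture enters the values given here was not tested. The summed level of the 4 basophil and mast cell markers was 53.6 ± 16.7 CPM in weaned calves (35.4 to 82.0) and 33.7 ± 14.8 CPM in control calves (10.9 to 52.1), and each of the 4 had a positive log2 difference, with 0 of 4 at an unadjusted p under 0.05. A positive difference was also found in 442 of all 597 genes with a symbol, so the direction of these 4 is not particular to them. FCER1A, the chain of the IgE receptor that binds IgE, had 14.8, 23.0 and 35.1 CPM in weaned and 1.05, 15.1 and 19.2 CPM in control calves (log2 0.94, SE 0.44; exact permutation p = 0.0303). It was 0.71 to 1.11 on the log2 scale with any calf left out. MS4A2, the beta chain of the same receptor, was at 6.06 ± 3.52 and 3.74 ± 2.38 CPM (exact permutation p = 0.199).

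Eosinophil, neutrophil and cytotoxic cell markers overlapped between the treatments, with 2, 2 and 3 genes tested, median log2 differences of -0.16, -0.26 and 0.26, and 0 genes at an unadjusted p under 0.05. The eosinophil lipoxygenase ALOX15 had 134, 167 and 298 CPM in weaned and 82.5, 277 and 456 CPM in control calves (exact permutation p = 0.567). ALPL, the alkaline phosphatase of neutrophils, was at 102 ± 89.8 and 82.4 ± 56.9 CPM (exact permutation p = 0.948), and weaned calf 1762 alone had 258 CPM. The other neutrophil marker, PGLYRP1, went the other way, at a log2 difference of -0.83 against 0.30 for ALPL. Of 4 neutrophil granule genes of precursors tested, 1 was higher and 3 lower (median log2 difference -0.61), at summed means of only 1.11 CPM in weaned and 1.89 CPM in control calves. KLRK1, the activating receptor NKG2D of natural killer and T cells, was at 15.2 ± 8.64 and 13.3 ± 10.9 CPM (exact permutation p = 0.509), and its highest values were those of calves 1773 and 1755. The T cell adaptor TRAT1 also peaked in these calves, at 78.6 and 72.9 CPM, and 12.3 CPM in calf 1763 was its lowest value. TLR7, a sensor of viral RNA, followed the same order, with 267 CPM in calf 1773, 150 CPM in calf 1755 and 40.3 CPM in calf 1763 (exact permutation p = 0.156). The log2 difference of TLR7 was 0.57 with all calves, 0.21 without calf 1773, 0.32 without calves 1755, 1763 and 1773, and 0.94 with the flowcell as a block. For IL5RA it was 0.15 with all calves, 1.00 without the same 3 calves and 1.00 with the flowcell as a block, and for KLRK1 it was 0.17, 0.13 and 0.87.

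Platelet and red cell genes were high in 1 weaned calf. PPBP, a chemokine stored in platelet granules, was at 28.8 CPM in weaned calf 1769, 7.08 CPM in calf 1773 and 0.249 to 2.14 CPM in the other 4, and at 0.857 to 2.64 CPM in control calves. Calf 1769 held 59.8% of all 189 counts, and without it the log2 difference was 0.52 in place of 2.04 (exact permutation p with all calves 0.435). The same library had the highest level of SELP, the P-selectin of platelets, at 44.3 CPM against at most 9.46 CPM in any other calf, of HBB, the beta globin, at 36.4 CPM, and of ALAS2, the first enzyme of haem synthesis in red cells, at 28.2 CPM. On d 0 this calf had 5.27 CPM of PPBP, 10.8 CPM of SELP, 11.4 CPM of HBB and 2.98 CPM of ALAS2, and on d 2 PPBP was back at 5.53 CPM. The summed platelet markers were 21.8 ± 27.8 CPM in weaned calves (7.29 to 78.1) and 10.3 ± 2.29 CPM in control calves (7.64 to 13.7). THBS1, thrombospondin, which platelets and monocytes release, was more evenly spread, at 70.9, 194 and 240 CPM in weaned and 36.0, 111 and 188 CPM in control calves (log2 0.75, SE 0.36; exact permutation p = 0.0866). Of the platelet cGMP signalling genes of the haemostasis list, PDE5A had 10 and 1 counts and MRVI1 18 and 3 counts over 6 libraries each, of which 10 of the 18 were in calf 1769.

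Some large differences were carried by 1 calf on all days. PRSS1, trypsin, a protease made by the pancreas, was at least 19.5-fold higher in the weaned group relative to 3 counts per control library, but 373 of its 396 counts were in weaned calf 1809. That calf had 117, 99.7, 91.5 and 119 CPM on d 0, 1, 2 and 7. ULBP3, a stress-induced ligand of NKG2D, was at least 2.77-fold higher, and 57 of its 60 counts were in weaned calf 1770, with 13.5, 14.2 and 16.6 CPM on d 0, 1 and 2. On d 7, 8.57 CPM were found in the library labelled 1770 and 12.9 CPM in that labelled 1758, whose identity is in doubt. The symbol is shared by several bovine copies, and reads matching more than 1 copy were discarded before counting, so its level is uncertain. ENSBTAG00000038663 had 0 counts in every weaned calf and was seen in 3 control calves, at 9.76 CPM in calf 1759, 33.8 CPM in calf 1802 and 21.1 CPM in calf 1803, each of which had it on d 0 too. Its exact permutation p was 0.182. All 3 genes were thus carried on d 1 by calves that had them on d 0.

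**Figure D4:**
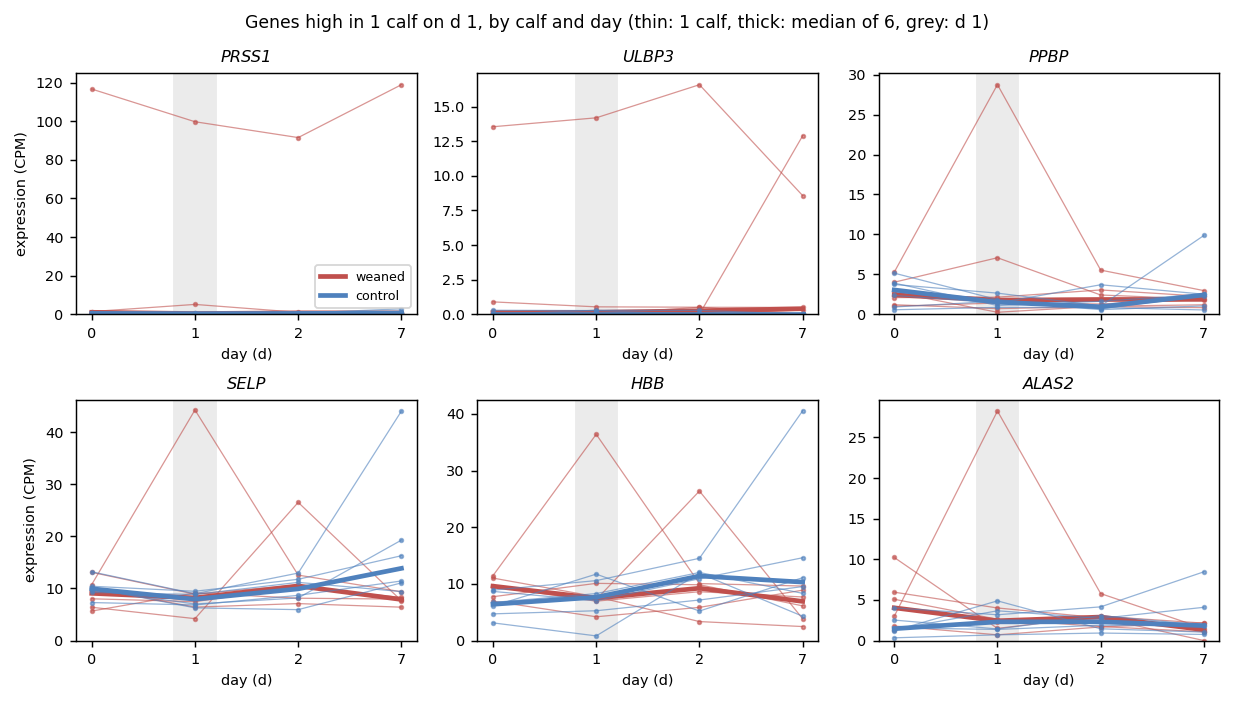
Levels (y axis, CPM) of PRSS1, ULBP3, PPBP, SELP, HBB and ALAS2 by day (x axis, d 0, 1, 2 and 7), 1 line for each calf. PRSS1 is high in calf 1809 and ULBP3 in calf 1770 on d 0, 1 and 2 (on d 7 also in the library labelled 1758), whereas PPBP, SELP, HBB and ALAS2 are high in calf 1769 on d 1 alone of its 4 days.

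Protease inhibitors of the serpin family were higher in weaned calves at very low counts. SERPINB2, an inhibitor of plasminogen activators made by monocytes, had 20 counts in weaned and 3 in control libraries, with none above 6 counts (exact permutation p = 0.0195). SERPINB4 had 29 and 8 counts and was at least 1.40-fold higher relative to 3 counts per control library (exact permutation p = 0.0303). The 3 serpins tested had a median log2 difference of 1.59, and 2 of them an unadjusted p under 0.05, against 30 of 597 genes with a symbol and 1.03% of all genes that were higher at such a p.

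The second question was how the difference on d 1 stood relative to d 0 in the same calves. With calf as a block, 0.0% of 14786 genes were called and the smallest adjusted p was 0.190, while 3301 genes (22.3%) had an unadjusted p under 0.05, 2029 higher (13.7%) and 1272 lower (8.6%), while 52.6% of all genes had a positive difference. Without the block, 681 genes had such a p (4.606%), 427 higher and 254 lower. Without calves 1758 and 1763, whose d 0 libraries were less alike their own calf, there were 1482 (10.13%), 798 higher and 684 lower. The d 1 and d 0 libraries of the same calf deviated together in 11 of 12 calves, with a mean r of 0.493 over 10258 genes, and r = -0.569 in calf 1763. DESeq2 called 5 genes in this comparison, HIC1 and 4 higher genes for which no symbol was at hand.

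POLE2, an accessory subunit of DNA polymerase epsilon, had the largest such difference among the genes followed across fits. Weaned calves went from 1.69 ± 1.48 CPM on d 0 to 3.90 ± 1.79 CPM on d 1 and were higher on d 1 in 6 of 6 cases, while control calves went from 3.38 ± 0.901 to 1.76 ± 1.22 CPM and were higher in 0 of 6. The log2 difference relative to d 0 was 2.22 (SE 0.51; exact permutation p = 0.00216), 1.951 to 2.599 with any calf left out and 2.06 without calves 1758 and 1763. The treatments already differed on d 0 in the opposite direction (exact permutation p = 0.039). CDK1, the mitotic kinase and the only other cell cycle gene with a symbol, was at 6.38 and 6.60 CPM on d 1 and had an exact permutation p of 0.483 for the change.

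FLT3 had overlapping groups on d 0, at 8.11 ± 3.44 and 9.28 ± 2.49 CPM (exact permutation p = 0.496), and on d 1 was higher than on d 0 in 5 of 6 weaned and in 0 of 6 control calves. Its log2 difference relative to d 0 was 1.32 (SE 0.35; exact permutation p = 0.00649) and 1.11 without calves 1758 and 1763, and the means were 10.99 and 5.07 CPM on d 2 and 9.91 and 6.41 CPM on d 7. For KDR (1.55, SE 0.44), TLR7 (1.18, SE 0.32), IL5RA (1.23, SE 0.32) and KLRK1 (1.29, SE 0.40), the log2 difference relative to d 0 was larger than that on d 1, since weaned calves had been the lower group on d 0. Without calves 1758 and 1763 these values were 1.13 for KDR, 0.91 for TLR7, 1.14 for IL5RA and 0.83 for KLRK1. IL5RA, the eosinophil receptor of IL5, had means of 7.27 and 16.4 CPM on d 0 and 15.2 and 13.7 CPM on d 1. FCER1A (1.03, SE 0.43) and THBS1 (0.91, SE 0.27) had means of 15.6 and 14.8 CPM and of 94.5 and 111 CPM on d 0 (exact permutation p = 0.831 and 0.959), and THBS1 was higher on d 1 in 6 of 6 weaned and 3 of 6 control calves. Without calves 1758 and 1763 the log2 difference relative to d 0 was 0.59 for FCER1A and 0.86 for THBS1.

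HIC1, a transcriptional repressor, and AGPAT9, an acyltransferase of triglyceride synthesis, were chosen after their values had been seen, for their small p in this comparison. HIC1 went from 38.6 ± 15.5 to 17.0 ± 5.09 CPM in weaned calves, lower in 6 of 6, and from 20.1 ± 6.25 to 25.5 ± 11.1 CPM in control calves, higher in 5 of 6. The log2 difference relative to d 0 was -1.42 (SE 0.25), with an adjusted p of 0.19 in edgeR and 0.00261 in DESeq2, and -1.16 without calves 1758 and 1763. Weaned calves had been higher on d 0 (exact permutation p = 0.0216), and on d 1 the groups overlapped (log2 -0.59, SE 0.31; exact permutation p = 0.145). AGPAT9 was at 38.4 ± 14.9 and 25.7 ± 6.84 CPM on d 1 (log2 0.57, SE 0.27), and its log2 difference relative to d 0 was 0.94 (SE 0.24; exact permutation p = 0.00866) and 0.80 without the same calves.

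Among genes with a symbol, 40 had an unadjusted p under 0.05 on d 1. Of these, 27 had an exact permutation p under 0.05 on d 1, 6 on d 0 and 13 for the change from d 0 to d 1. The 40 were chosen by their p on the same d 1 libraries, which also enter the change. The counts for d 1 and for the change are therefore not independent evidence. The share of all genes by the permutation test is not given here, so these counts have no background of the same test. In edgeR, a different test, 22.3% of all 14786 genes had an unadjusted p under 0.05 for the change with calf as a block. That share was 4.606% without the block and 10.13% without calves 1758 and 1763. In 4 of the 40, 1 library held at least 50% of the counts. Those with a p under 0.05 on d 1 and for the change, but not on d 0, included B4GALNT1, FLT3, SLC4A5 and SLC14A1 (exact permutation p of the change 0.0173, 0.00649, 0.0303 and 0.00866), whereas MYH14 and LIF had an exact permutation p under 0.05 on d 0 as well. FLT3, SLC4A5 and SLC14A1 are on the study's d 1 lists, drawn from these same libraries.

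**Figure D5:**
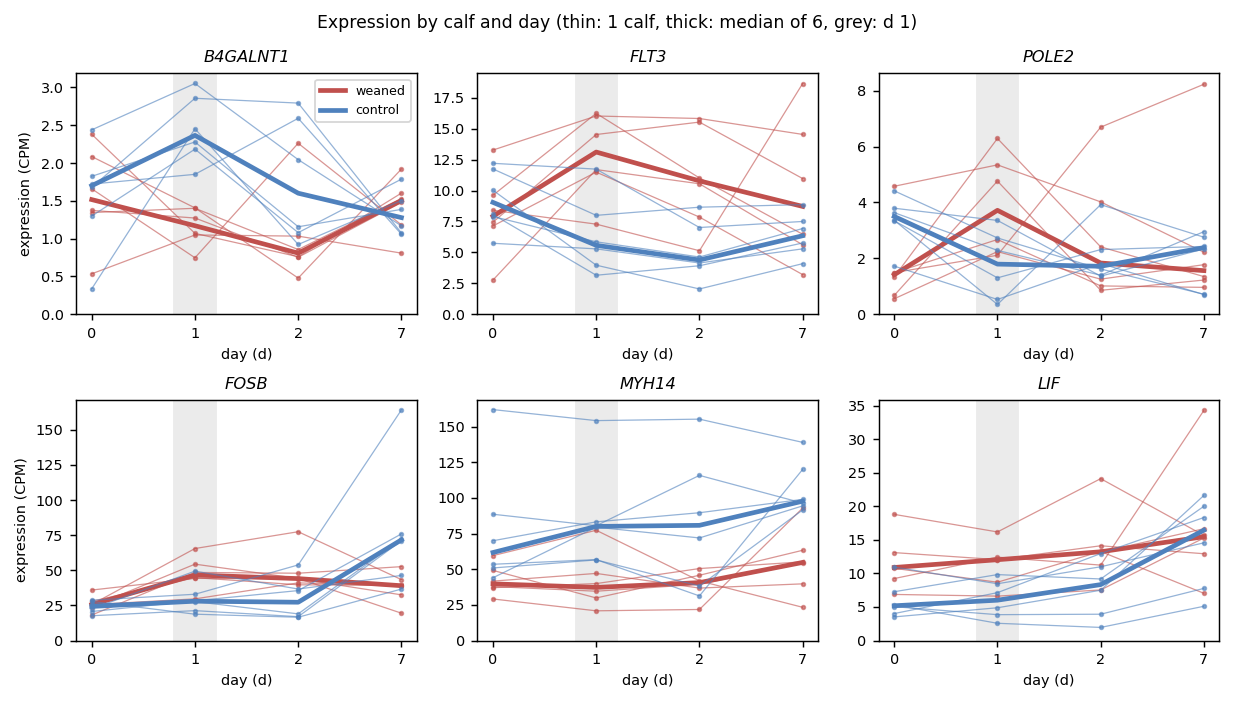
Levels (y axis, CPM) of B4GALNT1, FLT3, POLE2, FOSB, MYH14 and LIF by day (x axis, d 0, 1, 2 and 7), a thin line for each calf and a thick line for the median of weaned and of control calves. MYH14 and LIF are apart on d 0 already, B4GALNT1 and FLT3 overlap on d 0, with medians apart on d 1, and POLE2 changes order between d 0 and d 1.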

How the data were processed

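Libraries of single-end reads were made from poly(A) RNA of total leukocytes. The authors deposited counts of reads per Ensembl gene, raw and without normalisation, after alignment to Btau4.0 with Bowtie 0.12.7 allowing no mismatches, discarding of reads with several alignments, retention of a single read at each genomic position and counting with HTSeq 0.4.6p2. The removal of identical reads compresses the counts of strongly expressed genes, and whether counting used the strand is not stated. Overlapping and antisense genes and near-identical copies are therefore uncertain. All 48 columns matched the labels, and the table holds 25669 genes.

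Weaned and control libraries of d 1 were set against each other in edgeR 4.0.16 (R 4.3.3, TMM, genes with at least 10 counts in total, quasi-likelihood F-test), with thresholds of an adjusted p of 0.05 (Benjamini-Hochberg) and 2-fold. SE is the size of the log2 difference divided by the square root of F. The difference relative to d 0 is the treatment by day interaction over 24 libraries with calf as a block, since the same calves were sampled on both days. The pairing was checked from the deviations of d 0 and d 1 libraries from their group means, which gave r over 0.1 in 11 of 12 calves. CPM were scaled by TMM factors over all 48 libraries. Exact two-sided permutation tests used the mean of log2(CPM + 1). Against a group with 3 counts or fewer in every library, a fold is given as a bound relative to 3 counts per library, and no fold where both groups were that low. Sampling error of counts underlies all limits of detection, and each calf gave 1 library per day, so p-values hold for these calves.

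Alternatives were RLE size factors, DESeq2 1.42.0, no filter, filterByExpr, a robust fit, edgeR's exact test (common dispersion, tagwise dispersions), a joint fit of all 48 libraries, a flowcell block, the 4 flowcells with both treatments, no calf block and each calf left out. Leaving out calves 1755, 1763 and 1773 together, and 1758 and 1763 together, was added after the data had been seen. The fits were tested on simulated data. Figures were drawn with matplotlib 3.10.9 in Python 3.11.15.

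Symbols of 643 genes came from ortholog columns of the study's supplementary tables. The genes named are the 10 with the smallest p in each direction among those with a symbol, those without overlap between groups (up to 5 in each direction, mean of at least 1 CPM), and in each gene list the 2 with the smallest p in each direction and the 2 most abundant, with all genes of the study's d 1 lists and of the neutrophil list. Some genes that this rule names are not reported here. For ENSBTAG identifiers, at most 2 in each direction are given. The members and the lists were chosen with earlier results of these data known. Positions and sequences of the genes were not used here.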

Additional observations from a re-analysis of the deposited data

Results flagged for a closer look

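Within the 6 weaned or the 6 control calves, 1 calf lay further from the others than Dixon's 95% limit in 8 of 56 groups examined, where chance gives about 1 in 20, or 2.8 groups. In control calves, these were MYH14 (154.27 CPM) and IL12B (5.8585 CPM), both in calf 1802. In weaned calves, calf 1758 stood out in HAL (15.706 CPM), ITPKA (3.5162 CPM) and IL5RA (32.818 CPM), calf 1773 in TLR7 (266.76 CPM), calf 1769 in PPBP (28.755 CPM) and calf 1770 in ENSBTAG00000001333 (28.127 CPM). In HAL, PPBP and TLR7 the log2 difference between treatments moved over 1.5 times without that calf, and the values without it are given above. For IL5RA, the log2 difference on d 1 was 0.15 (SE 0.49) with all calves, -0.235 without calf 1758 and 1.00 with the flowcell as a block.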

How the results depend on the processing

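In the comparison on d 1, the count of 0 called genes was the same with RLE size factors, DESeq2, no filter, filterByExpr, a robust fit, all 48 libraries in 1 fit, either flowcell fit, without calves 1755, 1763 and 1773 and without each calf in turn (0 to 0). With 1 common dispersion, which assumes the same spread between calves for every gene, edgeR's exact test called 40 genes. With tagwise dispersions it called 1 gene, ENSBTAG00000038663, which was detected in 3 control calves. The count of genes at an unadjusted p under 0.05 was 276 with tagwise dispersions, 1911 with the flowcell as a block, 1878 on the 4 flowcells with both treatments, 649 without calves 1755, 1763 and 1773, and 194 to 2319 with each calf left out. Its split into higher and lower genes moved as well, for example to 287 and 164 with a common dispersion, 137 and 139 with tagwise dispersions and 1302 and 576 on the 4 flowcells. It was 134 and 150 without weaned calf 1769, and 171 and 497 without control calf 1759. The cause was not tested. Of the log2 differences of 26 genes on d 1, 6 of 590 values changed sign, all in IL5RA (-0.235 to 0.62 with each calf left out, with -0.235 without calf 1758, -0.01812 without 1759 and -0.04117 without 1789) and KLRK1 (-0.119 to 0.65, with -0.119 without calf 1773, -0.03241 without 1763 and -0.03035 without 1803). MYH14, HAL, ADRB3, PPBP and IL8 were called with a common dispersion.

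Relative to d 0, 0 genes were called with calf as a block and 0 with no replicate block, where the genes at an unadjusted p under 0.05 fell from 3301 to 681. DESeq2 called 5, and leaving out each calf gave 0 to 1, the 1 without weaned calf 1769 being also among the 5 and without a symbol. Leaving out each calf gave 1745 to 4600 genes at an unadjusted p under 0.05, and leaving out calves 1758 and 1763 gave 1482. Of 216 log2 differences relative to d 0 of 12 genes, 0 changed sign, and HIC1 was called by DESeq2 (-1.433).

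Depth limits the weakly expressed genes, at 3 counts for 0.747 to 0.988 CPM of the unscaled total. Marker lists covered too few genes to tell cell composition from expression.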
